A study of Mus musculus with 6 samples.

Results

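The 10 integrin genes Itgam, Itgax, Itgal, Itga4, Itga6, Itgav, Itgb1, Itgb2, Itgb5 and Itgb7 were followed by RNA-seq in macrophages (MPs) from injured mouse muscle. They were taken by name from a table of 13008 genes, and all 10 were in it, under 11 rows because the name Itgam stood in 2 of them. The MPs were F4/80+/Ly6C Low cells sorted on day 5 after cardiotoxin, a snake toxin that kills muscle fibers, had been injected into hind limb muscles of C57BL/6J mice aged 3 months and labelled male. There were 3 Control samples, whose genotype the labels give as wild type, and 3 Cripto KO samples, with the genotype Tg:LysMCre::Cripto-/-. In the study's methods the Cripto KO mice carried the LysMCre transgene, which drives Cre in the myeloid lineage, and conditional alleles of Cripto, a membrane protein that modulates TGFβ signaling. GFP from a R26mTmG reporter marked recombined cells in both groups, so the Control MPs described there carried Cre as well. The comparison asks whether loss of Cripto in myeloid cells altered the transcripts of these adhesion receptors in anti-inflammatory MPs. Cripto itself (Tdgf1) was not analysed here.

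Integrins are receptors of 1 alpha and 1 beta chain that hold a cell to the matrix or to another cell and carry signals in both directions across the membrane. MPs are known for the leukocyte-specific integrins, in which CD11a (Itgal), CD11b (Itgam) or CD11c (Itgax) pairs with CD18 (Itgb2), and which bind ICAMs, complement fragments and fibrinogen. The chains β1, β5 and β7 (Itgb1, Itgb5, Itgb7) pair with α4, α6 or αv (Itga4, Itga6, Itgav) in receptors for fibronectin, VCAM-1, laminin and vitronectin, and αv receptors also release active TGFβ from its latent form.

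Beyond their names, the alpha chains share a short motif and the beta chains another, each in the part of the chain that lies inside the cell. The sequences below are coding bases of the principal transcript of each gene in GENCODE M21 (GRCm38), 5′ to 3′. In the 6 alpha chains capitals mark the codons of GFFKR, the motif next to the membrane that holds the alpha and beta tails together while the receptor is at rest.
Itgam: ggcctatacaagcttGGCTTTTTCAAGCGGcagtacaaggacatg
Itgax: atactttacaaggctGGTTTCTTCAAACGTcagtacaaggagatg
Itgal: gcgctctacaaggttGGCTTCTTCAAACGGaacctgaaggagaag
Itga4: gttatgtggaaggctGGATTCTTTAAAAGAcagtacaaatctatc
Itga6: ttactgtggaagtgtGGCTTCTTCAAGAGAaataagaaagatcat
Itgav: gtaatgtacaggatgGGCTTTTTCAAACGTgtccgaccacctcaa
All 6 alpha members held the motif. In the 4 beta chains capitals mark the codons of NPxY or NPxF, the motifs that talin and kindlin bind when they switch the receptor on.
Itgb1: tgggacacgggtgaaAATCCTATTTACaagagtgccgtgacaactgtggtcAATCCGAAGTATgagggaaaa
Itgb2: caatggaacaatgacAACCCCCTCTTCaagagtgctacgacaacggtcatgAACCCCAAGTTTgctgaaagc
Itgb5: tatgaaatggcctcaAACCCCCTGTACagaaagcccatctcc
Itgb7: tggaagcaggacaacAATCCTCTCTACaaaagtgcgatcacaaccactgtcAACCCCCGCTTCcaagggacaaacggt
Of the 4 beta members, 3 held 2 such motifs and Itgb5 held 1.

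The genes of the CD11 chains lie together on chromosome 7 of GRCm38, Itgal from 127296260 to 127335138, Itgam from 128062640 to 128118491 and Itgax from 128129547 to 128150657, with 11055 bases between the last 2. Itga6 (71745616 to 71858416), Itga4 (79255426 to 79333123) and Itgav (83724397 to 83806916) lie on chromosome 2. The beta chains are spread over 4 chromosomes, Itgb1 on chromosome 8 (128685654 to 128733200), Itgb2 on 10 (77530252 to 77565708), Itgb7 on 15 (102215995 to 102231944) and Itgb5 on 16 (33829665 to 33949338). The second row named Itgam (ENSMUSG00000108596) is Gm49368 in GENCODE, a gene that has 27 of its 30 exons identical to exons of Itgam (ENSMUSG00000030786). The 2 transcripts part inside the coding sequence, and capitals mark the bases after the last shared one.
Itgam: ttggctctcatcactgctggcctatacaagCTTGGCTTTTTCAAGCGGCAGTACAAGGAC
Gm49368: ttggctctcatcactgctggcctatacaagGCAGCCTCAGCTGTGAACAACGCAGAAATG
The Gm49368 transcript therefore leaves the Itgam sequence just before the codons of GFFKR. The 31-base words of Itgam were shared with Gm49368 to 67.2%, so the split of reads between the 2 rows is uncertain. The second row held between 0.0723% and 0.378% of the value of Itgam in the 6 samples, and Itgam below means the first row. Itgax shared 10.7% of its words with Itgad, and Itgb5 7.86% with Gm38317.

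The libraries held between 12688968 and 15659847 recovered reads, and the deposited value of a gene is its read number with 0.5 added, scaled to 1000000 reads of the library after normalization. No member was close to the floor of 3 reads, with between 310 and 7901 reads in a sample. A pair of Control samples stood apart in genes that bear on the labels. Xist, the RNA of the inactive X chromosome of female cells, was 171 in Control replicate 1 and 0.114 to 0.885 elsewhere, although all mice are labelled male. Lyz2, the gene into which LysMCre was inserted, was 11066 in Control replicate 2 and 21.2 to 28.3 elsewhere. The part of either difference in the integrin values was not tested. MP markers were abundant in every sample (13 of 13 measured, summed value 22017 to 22523 in Control against 20706 to 22528 in Cripto KO). Of 10 measured neutrophil markers 4 had 3 reads or fewer in every sample, among them S100a9, Ngp and Retnlg at 0 reads, which allows up to 3 reads for each. The list summed to between 102 and 116, of which Csf3r made up most, at 97.0 to 104 in Control samples, and Mmp8 was 6.52 to 10.1 over all samples. Ly6c2, a gene of the Ly6C antigen of the gate, was between 2.44 and 3.42. The labels do not say whether the 3 samples of a group came from separate mice. The study's figure legend calls its RNA-seq samples biological replicates.

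No change between Control and Cripto KO MPs passed the test in any of the 10 integrin genes. With limma over all 13008 genes, 0 members had an adjusted p-value under 0.05 (0.131% of all genes had), with 0 also by edgeR and by DESeq2 on the recovered reads, and 0 had an unadjusted p under 0.05 (8.59% of all genes). In 0 members were the 3 Control values all on 1 side of the 3 Cripto KO values (14.5% of all genes). Log2 fold changes below are those of Control over Cripto KO, so positive values stand for more transcript in Control. Their median over the members was 0.05, beside 0.01 over all genes, and the largest, that of Itga6, was 0.30. For 8 of 10 members the 95% confidence interval stayed within a 1.5-fold change in either direction, and for 4 of 10 (Itgam, Itgav, Itgb1 and Itgb2) within 1.2-fold. The members together took between 0.223% (95% Wilson interval 0.221 to 0.226) and 0.252% (0.249 to 0.255) of the reads of a library, both in Control samples. Without Control replicate 1 the median was 0.08, and without Control replicate 2 it was 0.04, with 0 members past the adjusted threshold in either fit.

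**Figure D1:**
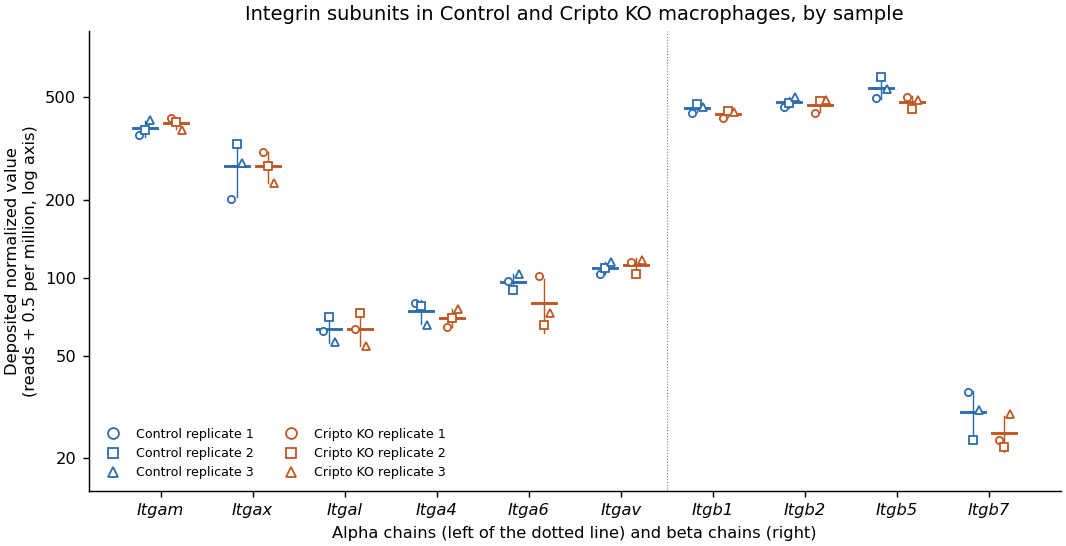
Deposited normalized values (log axis) of the 10 integrin genes in the 3 Control (blue) and 3 Cripto KO (orange) samples. Each symbol is 1 sample, horizontal lines are means and vertical lines SDs (n = 3). The groups overlapped for each of the 10 genes, and the values ran from 22.2 for Itgb7 to 598 for Itgb5.

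Among the leukocyte integrins, Itgam, the CD11b chain by which myeloid cells are usually gated, was 356, 372 and 408 in Control replicates 1 to 3 and 414, 400 and 374 in Cripto KO replicates 1 to 3. The groups overlapped, with means of 379 ± 26.4 and 396 ± 20.5 (SD, n = 3 each) and a log2 fold change of -0.07 (standard error 0.07, 95% interval -0.23 to 0.10, adjusted p = 0.838, limma). Itgb2, its CD18 partner, was 457, 476 and 501 in Control against 436, 483 and 486 in Cripto KO samples. The log2 fold change of Itgb2 was 0.03 (standard error 0.07, 95% interval -0.13 to 0.19, adjusted p = 0.933, limma). Both chains thus differed between the samples by less than 1.2-fold from the lowest to the highest.

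Itgax, the CD11c chain found on tissue MPs and dendritic cells, varied most among the abundant members. It was 202, 329 and 278 in Control against 307, 271 and 234 in Cripto KO samples. The lowest and the highest value were both in Control samples, and the group means were 270 ± 64.2 and 270 ± 36.4 (SD, n = 3 each). Its log2 fold change was -0.02 (standard error 0.17, 95% interval -0.40 to 0.35, adjusted p = 0.980, limma), and 0.17 without Control replicate 1, the sample with the lowest value. The dendritic cell marker list, which shares expression of Clec10a with MPs, had 0 of 9 measured genes with an unadjusted p under 0.05, and its summed value was 111 to 215 in Control against 145 to 186 in Cripto KO samples. Itgal, the CD11a chain of the lymphocyte-function antigen, was 62.3, 70.8 and 56.4 in Control against 63.5, 72.8 and 54.5 in Cripto KO samples. The ranges of the groups nearly coincided, and the log2 fold change was -0.01 (95% interval -0.28 to 0.26, adjusted p = 0.992, limma).

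Of the chains that pair with β1, β5 or β7, Itgb5 had the smallest p of the 10 members. It was 496, 598 and 540 in Control against 500, 450 and 489 in Cripto KO samples. Control replicate 1 fell among the Cripto KO values and the other 2 Control samples lay above them. The means were 545 ± 51.3 and 480 ± 26.2 (SD, n = 3 each), a log2 fold change of 0.18 (standard error 0.08, 95% interval -0.01 to 0.37, unadjusted p = 0.0583, adjusted p = 0.602, limma). The log2 fold change of Itgb5 was 0.11 without Control replicate 2 (adjusted p = 0.768, limma) and 0.25 without Control replicate 1 (adjusted p = 0.324).

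Itga6, the laminin receptor chain, was 96.9, 89.8 and 104 in Control against 101, 65.5 and 73.1 in Cripto KO samples. Cripto KO replicate 1 lay within the range of the Control samples, and the other 2 Cripto KO samples lay below it. The log2 fold change of Itga6 was 0.30 (standard error 0.14, 95% interval -0.03 to 0.62, unadjusted p = 0.0701, adjusted p = 0.629, limma). With Cripto KO replicate 2 left out it was 0.17 (adjusted p = 0.785). It was 0.48 without Cripto KO replicate 1, where the adjusted p of 0.176 was the smallest that any member had when 1 sample was left out. Itgb7, the gut-homing chain and the member with the lowest values before division by length, was 36.3, 23.5 and 30.8 in Control against 23.6, 22.2 and 29.7 in Cripto KO samples, again with overlap. Its log2 fold change was 0.25 (standard error 0.17, 95% interval -0.13 to 0.63, adjusted p = 0.718, limma), with 0.11 without Control replicate 1 (adjusted p = 0.842) and 0.42 without Control replicate 2 (adjusted p = 0.585).

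Itgb1, the common beta chain of matrix receptors, was the steadiest member, with 436, 469 and 458 in Control against 417, 441 and 437 in Cripto KO samples. Its coefficient of variation within a group was 3.76% in Control against 2.95% in Cripto KO samples, and its log2 fold change was 0.07 (standard error 0.06, 95% interval -0.07 to 0.22, adjusted p = 0.784, limma). Itgav was 103, 110 and 115 in Control against 115, 103 and 117 in Cripto KO samples (log2 fold change -0.03, 95% interval -0.20 to 0.14, adjusted p = 0.933, limma). Itga4 was 80.0, 77.8 and 65.4 in Control against 64.4, 70.0 and 75.6 in Cripto KO samples (log2 fold change 0.09, 95% interval -0.13 to 0.30, adjusted p = 0.838, limma). All 4 beta members and 2 of 6 alpha members had a higher mean log2 value in Control, but the groups overlapped for each of them. Control replicate 1 held the lowest value of 3 members, Cripto KO replicates 1 and 2 of 3 members each and Cripto KO replicate 3 of 1 member.

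The table held 8 other integrin subunits of 17 looked for, and 0 of them had an adjusted p under 0.05 in limma (0.131% of all genes). By unadjusted p, 2 of the 8 were under 0.05 and these were also the 2 whose groups did not overlap (8.59% and 14.5% of all genes). Itga9, the chain of α9β1, a receptor for tenascin-C and VCAM-1, had 102, 89.6 and 91.1 in Control against 70.0, 69.5 and 70.5 in Cripto KO samples. All 3 Control samples of Itga9 lay above the Cripto KO samples, which were nearly equal. Its means were 94.2 ± 6.66 and 70.0 ± 0.502 (SD, n = 3 each), a log2 fold change of 0.43 (standard error 0.07, 95% interval 0.26 to 0.59, unadjusted p = 0.000211, adjusted p = 0.0915, limma). Over the alternatives its adjusted p lay between 0.00581, with DESeq2, and 0.405, with eBayes without a trend, and was 0.103 with edgeR. When 1 sample was left out, the log2 fold change of Itga9 stayed between 0.37 and 0.46, with an adjusted p between 0.106 and 0.385. Itga9 is the only measured subunit on chromosome 9 (118606690 to 118901003), the chromosome that also carries Tdgf1. Whether this position has a part in the values of Itga9 was not tested.

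Itga1, the chain of a collagen receptor, was 1.10 to 1.35 in Control against 1.83 to 1.94 in Cripto KO samples, with 16, 14 and 16 reads in Control against 30, 26 and 26 reads in Cripto KO samples. Its log2 fold change was -0.63 (standard error 0.27, unadjusted p = 0.0448, adjusted p = 0.562, limma). The unadjusted p of Itga1 was 0.0509 or more whenever 1 sample was left out, and lay between 0.000901 and 0.148 over the other alternatives, so its place under 0.05 was not kept throughout. Itga5, the fibronectin receptor chain, had 212, 158 and 194 in Control against 172, 179 and 215 in Cripto KO samples (log2 fold change -0.01, adjusted p = 0.990, limma). The chains of platelets and muscle were low, with Itga2b between 0.341 and 1.05, Itgb3 between 2.76 and 6.09 and Itga7 between 2.02 and 7.69. Itga3 (0.530 to 1.48) and Itga10 (0.449 to 1.36) were also low, and Itga10 shared 31.8% of its words with Gm42957. None of these 5 had an unadjusted p under 0.05.

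**Figure D2:**
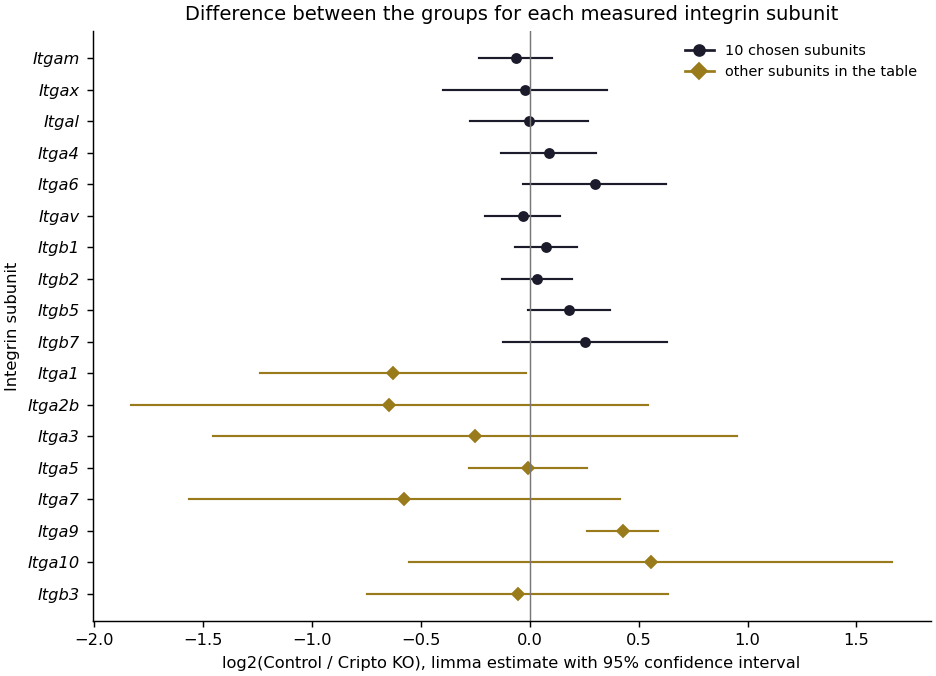
Estimated log2(Control/Cripto KO) of the 10 chosen integrin genes (black circles) and the 8 other subunits in the table (ochre diamonds), with 95% confidence intervals from limma. The intervals of all 10 chosen genes include 0, and those of Itga9 (0.26 to 0.59) and Itga1 do not.

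To compare genes with each other, values were divided by the length of the longest protein coding transcript in kilobases. On that scale the beta chains Itgb2 (159 ± 7.79 per kilobase, SD, n = 6), Itgb5 (156 ± 15.5) and Itgb1 (116 ± 4.80) led the order of the 10 members. Itgam (82.7 ± 4.94) and Itgax (66.7 ± 11.5) followed, then Itga6 (20.5 ± 3.64), Itgav (15.7 ± 0.881), Itgal (12.1 ± 1.41), Itgb7 (10.3 ± 2.05) and Itga4 (7.39 ± 0.672). With this length the level per kilobase of Itgb2 was 21.5 times that of Itga4. Of the 9 neighbouring pairs in this order, 5 had ranges over the 6 samples that did not overlap. Itgb2 and Itgb5, Itgam and Itgax, Itga6 and Itgav, and Itgal and Itgb7 did overlap, so their order within each pair is not resolved. The number of separated pairs was 5 with the union of exons and with the mean transcript length as well, but the order moved and the separated pairs were not the same. Itgam and Itgax were apart with the union of exons, and Itgb1 and Itgb5 overlapped with the mean transcript length. With the mean length Itgb1 stood above Itgb5 and Itgax above Itgam, and with either other length Itga6 came below Itgb7. Itgb2 and Itga4 stood at 155 and 5.17 per kilobase with the union of exons, and at 358 and 7.39 with the mean length. The factor between them therefore depends on the length used.

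**Figure D3:**
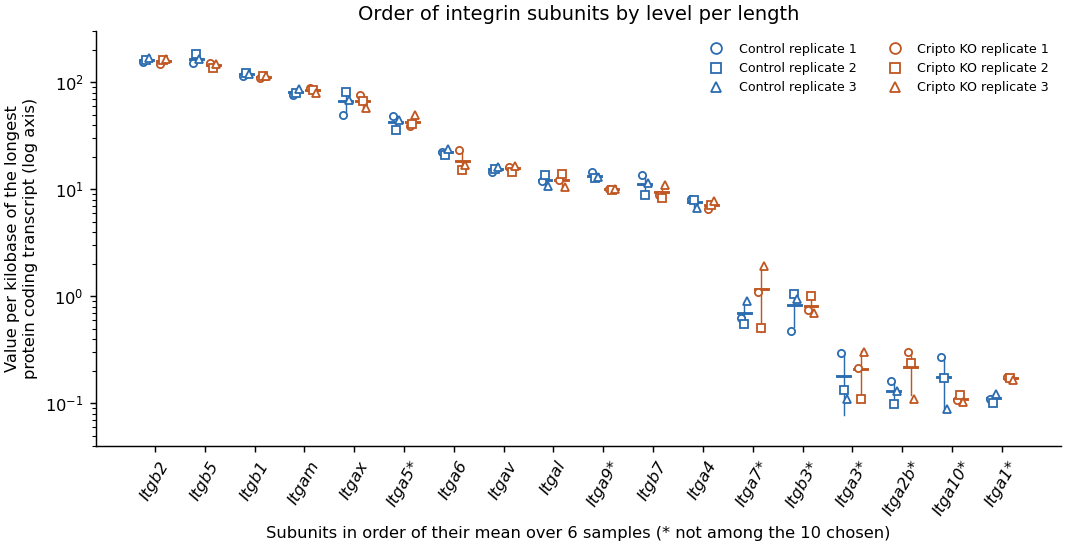
Deposited value per kilobase of the longest protein coding transcript (log axis) for all 18 measured integrin subunits, in order of the mean over the 6 samples. Symbols are samples, horizontal lines group means and vertical lines SDs (n = 3), and subunits that are not among the 10 chosen carry an asterisk. Itgb2 and Itgb5 stand highest, at 159 and 156, and Itga7, Itgb3, Itga3, Itga2b, Itga10 and Itga1 are the 6 lowest.

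Since a chain reaches the cell surface in pairs, the sum of alpha partners was set against the beta chain within each sample, on values per kilobase. The leukocyte chains Itgal, Itgam and Itgax summed to 0.991 ± 0.0966 of Itgb2 in Control and to 1.04 ± 0.149 in Cripto KO samples (SD, n = 3 each; exact permutation test, two-sided, p = 0.6). Itga4, Itga6 and Itgav together were 0.383 ± 0.0195 of Itgb1 in Control against 0.368 ± 0.0527 in Cripto KO samples (exact permutation p = 0.7). However, Itgb1 also pairs with Itga5 (mean of 43.0 per kilobase over the 6 samples) and Itga9 (11.7), which this sum left out. Itga4 was 0.700 ± 0.182 of Itgb7 in Control against 0.772 ± 0.0854 in Cripto KO samples (exact permutation p = 0.6). Itgav over Itgb5 was the 1 ratio of 4 in which the groups did not overlap. It was 0.0967, 0.0853 and 0.0988 in Control against 0.107, 0.107 and 0.111 in Cripto KO samples, a log2 difference of -0.21 (exact permutation p = 0.1, the smallest that 3 against 3 samples allow, and 0.4 adjusted over the 4 ratios). With 3 samples a group none of these tests could pass 0.05. The level of a ratio depends on the length used. With the mean transcript length the leukocyte sum was 0.578 of Itgb2 in Control against 0.607 in Cripto KO samples. Itga4 was then 0.254 of Itgb7 in Control against 0.281 in Cripto KO samples. Itgav was 0.184 of Itgb5 in Control against 0.213 in Cripto KO samples. How near a ratio came to 1 is therefore not resolved.

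**Figure D4:**
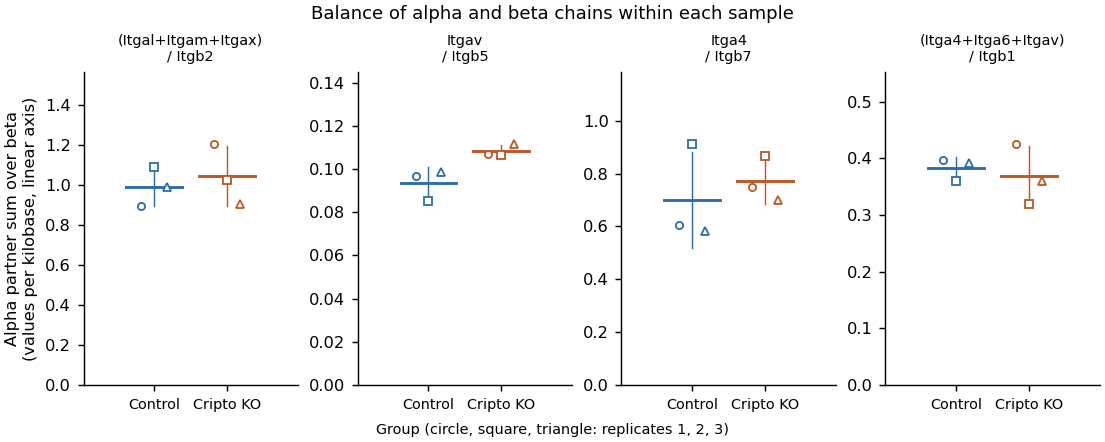
Sum of the alpha partners over the beta chain in each sample (linear axis from 0, values per kilobase of the longest protein coding transcript) for 4 pairings. Symbols are samples, horizontal lines means and vertical lines SDs (n = 3). The Itgav to Itgb5 ratio of the 3 Cripto KO samples (0.107 to 0.111) lies above that of the 3 Control samples (0.0853 to 0.0988), and the groups overlap in the other pairings.

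The proteins that switch integrins on and tie them to actin were measured for 38 of 40 genes listed, with 0 past the adjusted threshold and a median log2 fold change of 0.01. By unadjusted p, 2 of 38 were under 0.05, which is 5.26% beside 8.59% of all genes. Those were Src, a kinase downstream of integrins, with 9.61, 7.68 and 6.90 in Control against 9.81, 13.5 and 10.1 in Cripto KO samples (log2 fold change -0.46, adjusted p = 0.529, limma), and Tln2, the minor talin, between 1.51 and 4.86 (log2 fold change -0.81, adjusted p = 0.548, limma). The main talin of leukocytes, Tln1, was 409, 427 and 433 in Control against 431, 459 and 448 in Cripto KO samples (log2 fold change -0.08, adjusted p = 0.766, limma). Rap1b, the small GTPase that recruits talin, was 676, 636 and 652 in Control against 589, 633 and 606 in Cripto KO samples (log2 fold change 0.10, adjusted p = 0.700, limma).

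Among the ligands of integrins, 23 of 37 listed names were measured and 0 passed the adjusted threshold, with a median log2 fold change of -0.15. The 37 names hold some genes under both an older and a newer name. By unadjusted p, 2 of 23 were higher in Control against 3 higher in Cripto KO MPs, beside 4.6% and 3.99% of all genes. Icam1, a ligand of the leukocyte integrins, was 279, 263 and 277 in Control against 223, 253 and 254 in Cripto KO samples (log2 fold change 0.17, adjusted p = 0.555, limma). F11r, the junctional molecule JAM-A that Itgal binds, was 39.0, 43.0 and 37.1 in Control against 33.8, 34.6 and 31.4 in Cripto KO samples (log2 fold change 0.25, adjusted p = 0.500, limma). The groups did not overlap for either gene.

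The 3 ligands Mfge8, Cyr61 and Ctgf had higher values in Cripto KO samples. Mfge8, the bridge by which αv integrins take up apoptotic cells, was 353, 425 and 522 in Control against 526, 583 and 492 in Cripto KO samples, with overlap (log2 fold change -0.31, adjusted p = 0.548, limma). Cyr61 (9.75, 10.3 and 11.5 against 16.2, 12.3 and 17.3) and Ctgf (3.79, 4.35 and 3.31 against 6.70, 5.49 and 5.69) are matricellular proteins of the CCN family and had an adjusted p of 0.420 each. In the same samples 6 of 9 fibroblast markers had an unadjusted p under 0.05, all higher in Cripto KO, beside 8.59% of all genes in either direction and 3.99% higher in Cripto KO. Col1a1 was 191, 192 and 201 in Control against 226, 244 and 223 in Cripto KO samples. The summed fibroblast markers were 667 to 728 in Control against 776 to 833 in Cripto KO samples, and their part in the values of the matrix ligands was not tested. The most abundant ligands were Spp1 (osteopontin), between 4199 and 5303, and Thbs1 (thrombospondin), between 1519 and 2865, both with overlap between the groups.

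Of the other lists, the membrane partners of integrins had 0 of 13 genes with an unadjusted p under 0.05 and a median log2 fold change of 0.01. They include the tetraspanin Cd63 (1275 to 1426) and Emp1 (690 to 971). Of the genes of latent TGFβ, which αv receptors act on, 0 of 8 were under 0.05 by unadjusted p, with a median of -0.14. Only 1 of the 8, Tgfb1, had a higher mean log2 value in Control. Tgfb1 was 443, 510 and 481 in Control against 437, 455 and 442 in Cripto KO samples (log2 fold change 0.10, adjusted p = 0.726, limma). Nrros, which anchors latent TGFβ on myeloid cells, was between 254 and 360 (log2 fold change -0.09, adjusted p = 0.901, limma).

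Markers of other cells were counted in the same way, and 0 of any of these lists passed the adjusted threshold. Muscle fiber transcripts had an unadjusted p under 0.05 in 5 of 7 measured genes, all higher in Control, beside 8.59% of all genes in either direction and 4.6% higher in Control. Myh4 was 18.1, 7.08 and 6.32 in Control against 5.62, 0.814 and 0.103 in Cripto KO samples. It had 245, 93 and 77 reads in Control against 88, 11 and 1 reads in Cripto KO samples, the last under the floor of 3 reads. Myh4 was the only 1 of the 7 whose groups did not overlap (14.5% of all genes). Ckm was 14.1, 6.17 and 4.94 in Control against 7.40, 1.45 and 1.14 in Cripto KO samples, with overlap. Acta1 was 17.3, 9.80 and 8.77 in Control against 19.4, 7.40 and 5.82 in Cripto KO samples, so its highest value was in Cripto KO replicate 1. The summed value of the muscle list was 34.4 to 73.1 in Control against 16.2 to 49.6 in Cripto KO samples, with Control replicate 1 the highest. The part of the muscle transcripts in the integrin values was not tested. The endothelial list had 1 of 9 under 0.05, which is 11.1% beside 8.59% of all genes (Tie1, 4.45 to 6.07 in Control against 7.27 to 8.60 in Cripto KO samples), and the list of T, NK and B cells 1 of 4, too few genes to set against the 8.59% (Cd4, which MPs also express, 74.6 to 95.1 in Control against 62.3 to 77.6 in Cripto KO samples). The MP, monocyte, neutrophil, dendritic cell and platelet lists had 0 of 13, 0 of 8, 0 of 10, 0 of 9 and 0 of 2. Fewer cells of a type and less RNA per cell cannot be told apart in these bulk samples.

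**Figure D5:**
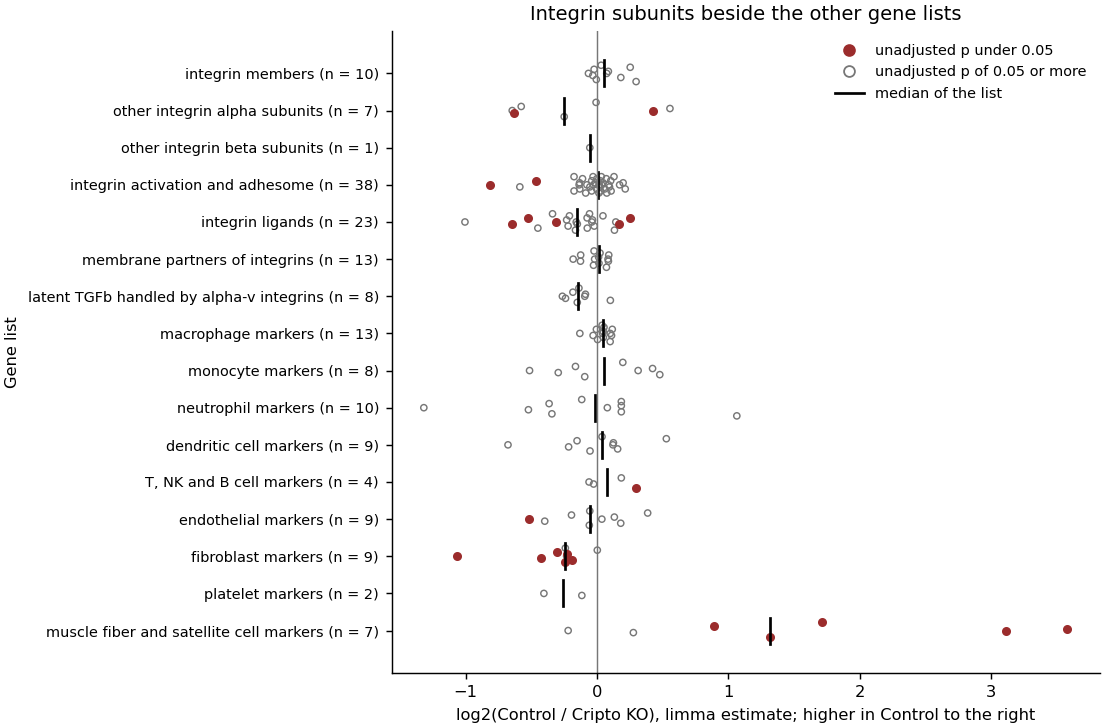
Estimated log2(Control/Cripto KO) of single genes (circles) in the integrin genes and in each other list, with genes of an unadjusted p under 0.05 filled in red and the median of each list as a black line. The 10 integrin genes lie between -0.07 and 0.30 around a median of 0.05, the fibroblast list lies mostly to the left and the muscle list to the right.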

How the data were processed

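RNA-seq was performed by the authors on sorted F4/80+/Ly6C Low MPs, 3 Control and 3 Cripto KO samples. Reads were trimmed with Cutadapt 1.7.1, those shorter than 30 bp were dropped, and the rest were quantified on the mouse transcriptome (GRCm38) with RSEM 1.2.20 and normalized with LIMMA. RSEM divides reads between similar transcripts, which bears on Itgam. The authors deposited a normalized signal, in which each gene's reads, with 0.5 added, are scaled to 1000000 reads of the library, and no value was 0. Whole reads were recovered from 100.0% of 78048 values within 0.01 read. Limits from 3 reads and Wilson intervals cover counting error only.

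Groups came from the sample labels. Log2 values of all 13008 genes, with no pseudocount, were tested with limma 3.58.1 (R 4.3.3) by lmFit and eBayes with a variance trend and Benjamini-Hochberg adjustment. It called 17 genes, and edgeR 4.0.16 (quasi-likelihood, TMM) on the recovered reads also called 17. Alternatives changed the pseudocount (0.5, 1), the low-value filter (mean of at least 1), the scaling (median, quantile), the variance model (no trend, robust) and the test (edgeR, DESeq2 1.42.0, voom), added the replicate number as a block, or left out 1 sample at a time. Ratios were compared by exact permutation (scipy 1.17.1). The main limma test and the edgeR test were tried on simulated data, and the other tests were not.

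The members and lists were chosen with earlier results of these data known. Named are the 10 members, every other measured subunit, in each other list mainly the genes with an unadjusted p under 0.05 and the 2 with the highest mean, and markers used to check the sort. In the lists of other cell types only some of these genes are named. Positions, lengths and sequences came from GENCODE M21. Tdgf1 was not analysed here.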

Additional observations from a re-analysis of the deposited data

How the results depend on the processing

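No member passed the adjusted threshold under any alternative or without any 1 sample. The count of members with an unadjusted p under 0.05 was 1 with the robust option (Itgb5) and 1 with the replicate block (Itga6). It was 0 to 1 when 1 sample was left out, with Itgb5 without Control replicate 1, Itgb7 without Control replicate 2 and Itga6 without Cripto KO replicate 1. The median log2 fold change of the members stayed between 0.0013 and 0.052 over the alternatives that kept all samples, with quantile normalization the lowest, and between 0.04 and 0.09 when 1 sample was left out. The sign of Itgb2 turned with quantile normalization (-0.020). When 1 sample was left out it turned for Itgax (-0.18 to 0.17), Itgal (-0.11 to 0.10), Itgav (-0.089 to 0.0082) and Itgb2 (-0.020 to 0.062), and the cause was not tested. The genes called over the whole table were 6 with quantile normalization, 5 without a trend, 31 with the robust option, 71 with DESeq2, 10 with voom weights and 2 with the replicate block, and 5 (without Cripto KO replicate 2) to 31 (without Control replicate 1) when 1 sample was left out. Samples with the same number did not deviate together (r = -0.21, -0.0052 and -2.5e-05 over 11960 genes), and no sample correlated best with its own number, so the numbers were not taken as pairs. For Itgav over Itgb5 and Itga4 over Itgb7 the length cancels in the log2 difference, so another length could not change it. The log2 differences of the 2 summed ratios kept their sign with both other lengths. When 1 sample was left out the log2 differences ran from -0.25 to -0.15 for Itgav over Itgb5 and from -0.37 to -0.050 for Itga4 over Itgb7. They ran from -0.17 to 0.038 for the leukocyte chains and from -0.033 to 0.17 for the partners of Itgb1. Precision rests on 3 samples a group.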
